A study of Drosophila melanogaster with 18 samples.

Results

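The genes described here encode the Dpr proteins (defective proboscis extension response) and the DIPs (Dpr-interacting proteins), 2 families of *Drosophila* cell surface proteins. Members were the rows of the expression table whose FlyBase symbol is dpr with a number or DIP- with a Greek letter. The rule found 32 of 17288 genes, 21 Dpr genes (*dpr1* to *dpr21*) and 11 *DIP* genes (*DIP-alpha* to *DIP-lambda*), and it uses no measured value. RNA was sequenced from brains, taken from females and males apart, and from ovaries. Young *tud* mutants and controls gave 6 groups of 3 libraries, 18 in all. The mutants carried the y, w X chromosome and a second chromosome with tud1, bw and sp over the deficiency Df(2R)PurP133. The controls are called wild-type in the labels, but they carried the same y, w and tud1, bw, sp chromosomes over the balancer CyO with P[w+, hs-hid], so tud1 was present in every group. The 2 genotypes therefore differ in a whole homologue of the second chromosome and in the w+ transgene as well as in *tud*, and effects of these cannot be told apart from those of losing *tud*. Levels are in FPKM (fragments per kilobase of transcript per 1e+06 mapped fragments), which is scaled for length, so that levels can be compared between genes. Summed over all genes, FPKM ran from 987099 to 3.41e+06 in the brain libraries, and any further scaling across libraries by the authors is not given in the sources used here.

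Dpr proteins and DIPs belong to the immunoglobulin superfamily and sit on the surface of neurons. Different neurons carry different members, and a Dpr on a neuron binds a particular DIP on its partner, a code used in matching synaptic partners, in neuron survival and in the layering of the visual system. Known binding partners divide most members into groups. DIP-alpha binds Dpr6 and Dpr10, which matters in the optic lobe and at motor neuron terminals. DIP-beta binds Dpr8, Dpr9 and Dpr21. DIP-gamma binds Dpr11 and the related Dpr15, Dpr16 and Dpr17, in the colour vision circuit among other places, and DIP-delta binds Dpr12 in the mushroom body. DIP-epsilon and DIP-zeta bind Dpr13, Dpr14, Dpr18, Dpr19 and Dpr20, and DIP-eta, DIP-theta and DIP-iota bind Dpr1 to Dpr5. Dpr7, DIP-kappa and DIP-lambda were placed in no group here.

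All 32 genes were above 1 FPKM in each of the 12 brain libraries. The lowest value was 1.18 FPKM and the highest 339.7 FPKM, and the median over genes of the mean control level was 15.6 FPKM. *dpr21*, a partner of DIP-beta, was the highest gene in both genotypes. Its mean over the 6 control brains was 159 ± 71.2 FPKM (SD, n = 6), with the lowest library at 37.0, the median at 177 and the highest at 229. Its gene model in the annotation holds only 993 exonic bases, the shortest of the members, so its FPKM rests on few bases. *dpr7* was next at 76.9 ± 37.7 FPKM (SD, n = 6) in controls, and *dpr11*, which is known for marking a subset of colour-sensing photoreceptors, was at 49.4 ± 11.9 FPKM (SD, n = 6). The spreads of *dpr7* and *dpr11* overlapped, as did those of most neighbours in this order.

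At the other end, *DIP-iota* was at 1.96 ± 0.42 FPKM (SD, n = 6) in control brains, below every other member. *DIP-zeta* at 5.70 ± 2.51 FPKM (SD, n = 6) and *dpr8* at 5.98 ± 3.25 FPKM (SD, n = 6) came next, and they did not differ beyond their spread. The highest DIP genes were *DIP-delta* at 22.2 ± 9.07 FPKM (SD, n = 6) and *DIP-alpha* at 20.2 ± 12.98 FPKM (SD, n = 6). The SD of *DIP-alpha* rested mainly on control male brain replicate 3, at 46.6 FPKM, against 12.5 to 16.5 in the other 5 control brains.

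**Figure D1:**
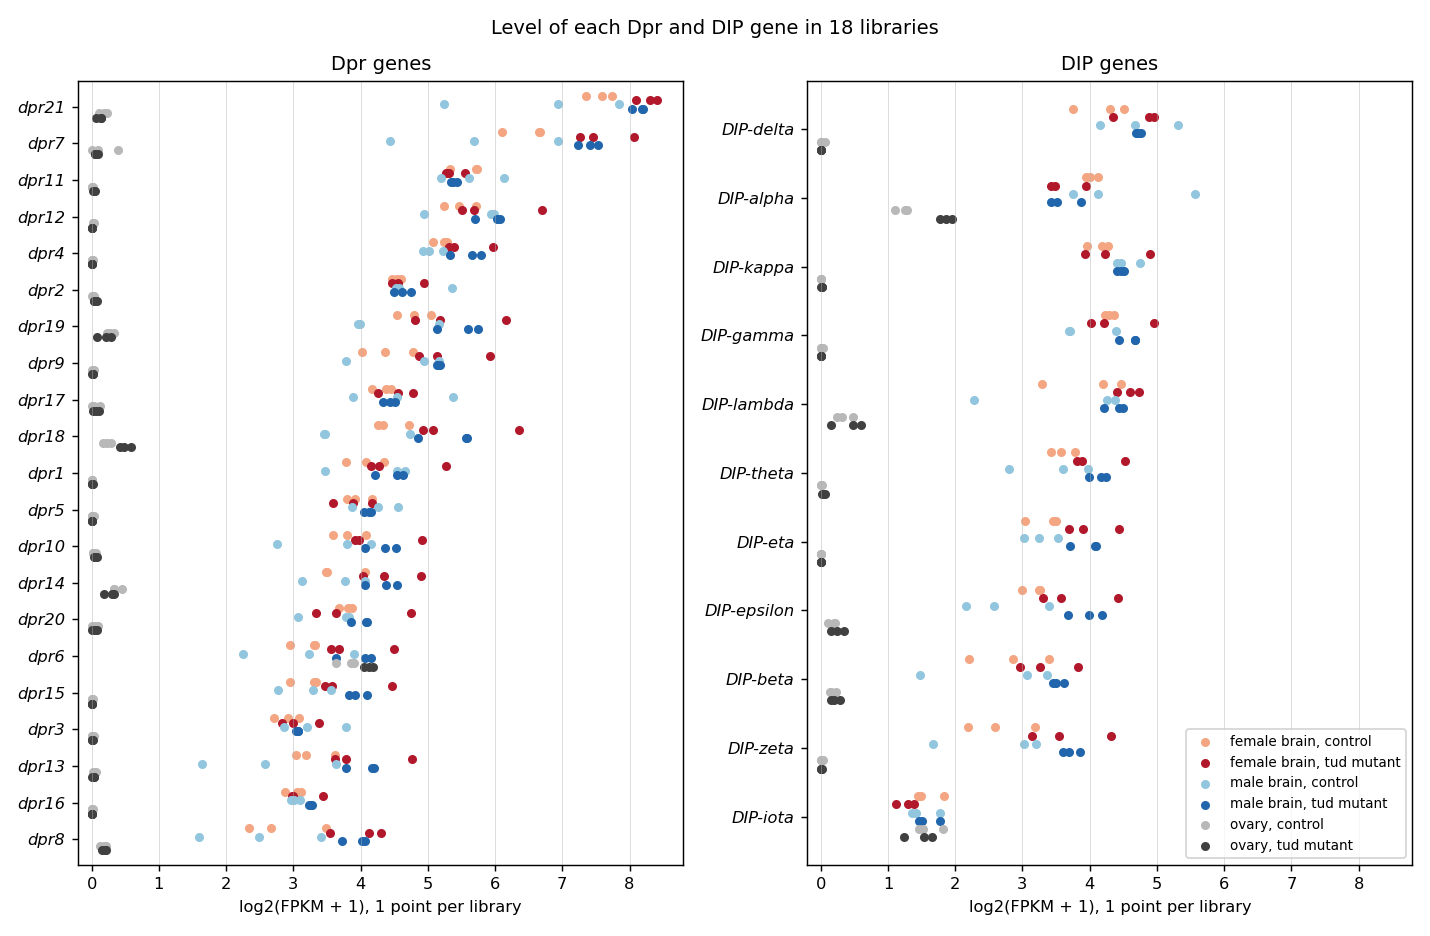
Level of each Dpr gene (left) and DIP gene (right) on a log2(FPKM + 1) axis, 1 point per library and 1 colour per group, ordered by the mean of the 6 control brains. In the brain, *dpr21* and *dpr7* stand at the top and *DIP-iota* at the bottom, and in the ovary only *dpr6*, *DIP-alpha* and *DIP-iota* lie clearly above 0.

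Some libraries stood apart, and the members moved with them. Control male brain replicate 2 held the lowest brain value of 22 of the 32 members, its correlation over all tested genes with the remaining brain libraries had a median of 0.836 against 0.899 to 0.946 for the others, and *roX2*, a male dosage compensation RNA, was at 378 FPKM there against at least 11621 FPKM in the other male brains. The *tud* female brain replicate 2 held the highest value of 23 members, and control male brain replicate 3 that of 6. The *tud* transcript was at 61.0 to 67.2 FPKM in control ovaries and 9.10 to 12.4 FPKM in mutant ovaries. In the brain it was at 20.2 to 36.2 FPKM in controls and at 12.9 to 17.9 FPKM in 5 of 6 mutant libraries, but at 32.3 FPKM in *tud* female brain replicate 2, within the control range. Brain results are therefore also given without these libraries. Fragments per library, estimated from the steps between low values, ran from 5.52e+06 to 1.53e+07 for brains and from 2.22e+07 to 3.00e+07 for ovaries, and carry no counting interval.

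Genotype was compared in the brain first, to see whether members differ between *tud* mutant and control brains. Of the 32 members, 12 were higher in *tud* mutant brains and 0 were lower, as the mean of both sexes, at an adjusted p of 0.05 or less (limma on log2(FPKM + 1), Benjamini-Hochberg over 10689 genes). That is 37.5% of members called higher, where 14.2% of all tested genes were called higher, 10.8% lower and 24.9% in either direction. The 12 were *dpr4*, *dpr7*, *dpr8*, *dpr13*, *dpr14*, *dpr15*, *dpr18*, *dpr19*, *dpr21*, *DIP-epsilon*, *DIP-zeta* and *DIP-eta*. The difference was positive for 26 members, 81.3% of them against 55% of all genes, and the median log2 difference was 0.59 for members against 0.07 for all genes. The count depended on single libraries. It was 0 without control female brain replicate 3, *tud* male brain replicate 1 or *tud* male brain replicate 2, and 2 without control female brain replicate 2. It was 5 without control male brain replicate 3 or *tud* female brain replicate 2, and 18 when control male brain replicate 1 was left out. Without control male brain replicate 2 alone, 8 members were called higher and 1, *DIP-alpha*, lower. Without both control male brain replicate 2 and *tud* female brain replicate 2, chosen after seeing the data, 7 members were called higher, all of them among the 12. Counts over all genes in these fits are not given here, so whether the members or the whole table gained or lost calls cannot be read from them.

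**Figure D2:**
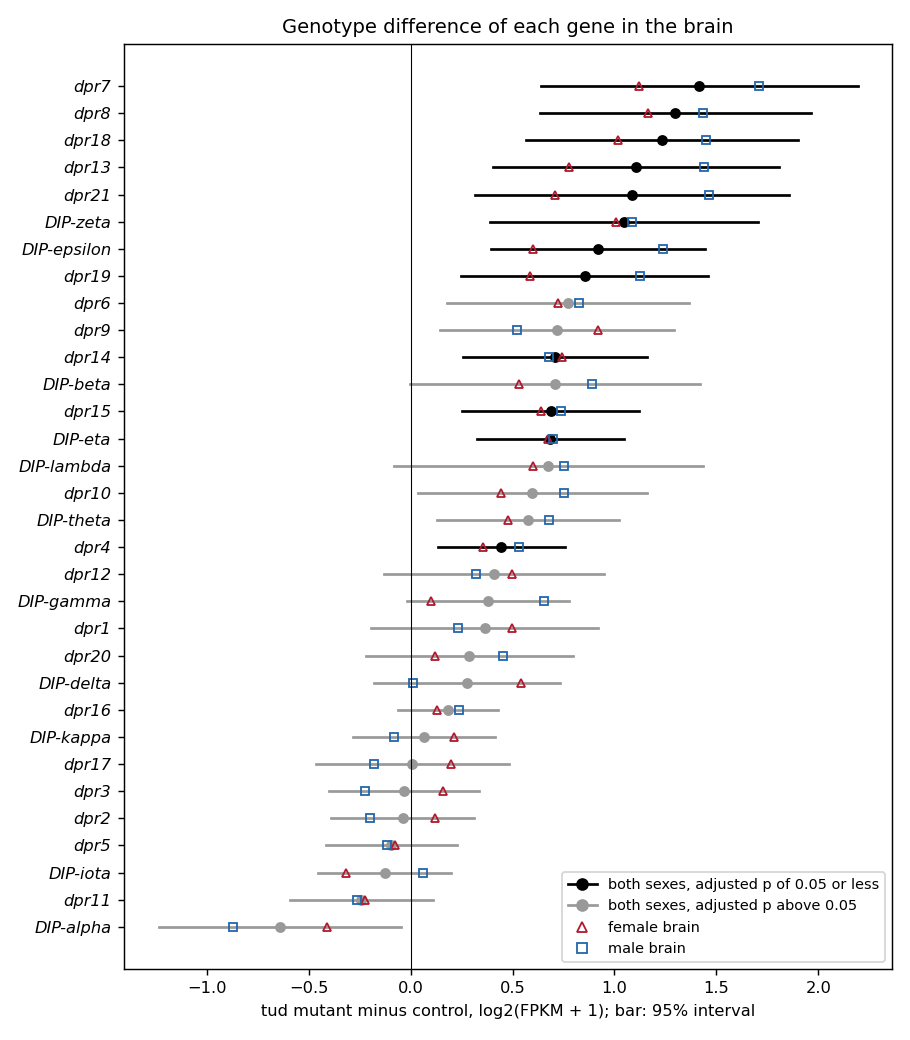
Difference between *tud* mutant and control brains for each member on the log2(FPKM + 1) scale, with its 95% interval (circles and bars, mean of both sexes) and the female (triangles) and male (squares) values. The 12 genes in black passed an adjusted p of 0.05, all to the right of 0, from 0.44 for *dpr4* to 1.41 for *dpr7*, and *DIP-alpha* lies farthest to the left at -0.64.

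*dpr7* (chr4:247124-253329, dm6, minus strand), the only member on the fourth chromosome, had the largest estimate, within error of that of *dpr8*, which was larger with a pseudocount of 0.1 (1.46 against 1.43). It was at 101, 68.0 and 99.5 FPKM in control females and at 152, 268 and 175 FPKM in *tud* females. In males it was at 122, 20.6 and 50.3 FPKM in controls and at 185, 169 and 149.9 FPKM in *tud* mutants. Every mutant library lay above every control library of either sex. The log2 difference was 1.41 (SE 0.35, limma adjusted p = 0.0228), with 1.12 in females and 1.71 in males.

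*dpr8* and *dpr21*, both partners of DIP-beta, showed the same separation. *dpr8* (chrX:14322226-14462351, plus strand) was at 10.2, 5.34 and 4.07 FPKM in control females against 16.5, 18.8 and 10.7 FPKM in *tud* females, and at 9.70, 2.02 and 4.59 FPKM in control males against 15.3, 15.7 and 12.2 FPKM in *tud* males. Its lowest mutant library was thus just above its highest control. The log2 difference of *dpr8* was 1.30 (SE 0.30, limma adjusted p = 0.0194). *dpr21* (chr2R:3066499-3191011, plus strand) was at 214, 192 and 162 FPKM in control females and 272, 339.7 and 315 FPKM in *tud* females, and at 229, 37.0 and 121 FPKM in control males and 292, 289 and 262 FPKM in *tud* males. Control male brain replicate 2, at 37.0 FPKM, widened its control spread, and without that library the log2 difference of *dpr21* went from 1.09 (SE 0.35, limma adjusted p = 0.0447) to 0.73. The remaining pair of the group, *dpr9* at 0.72 and *DIP-beta* itself at 0.71, did not pass (limma adjusted p = 0.0634 and 0.121). In *DIP-beta* the mutant and control libraries overlapped in females and not in males.

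The group around DIP-epsilon and DIP-zeta held the most calls, 6 of 7 members, with a median log2 difference of 0.92. *dpr18* (chrX:16063738-16070304, plus strand) was at 25.3, 19.3 and 18.2 FPKM in control females against 29.4, 81.0 and 32.9 FPKM in *tud* females, and at 25.5, 9.93 and 10.1 FPKM in control males against 46.9, 46.2 and 28.1 FPKM in *tud* males. The genotypes did not overlap in either sex, although the highest mutant library, *tud* female brain replicate 2, was far above the others. Its log2 difference was 1.23 (SE 0.30, limma adjusted p = 0.0219). Of the remaining Dpr genes of the group, *dpr13* differed by 1.11 (SE 0.32), *dpr19* by 0.85 (SE 0.28) and *dpr14* by 0.71 (SE 0.20), and all 3 overlapped between genotypes in females. In males *dpr19* overlapped too, with a control library at 34.9 FPKM and a *tud* library at 34.3 FPKM, while *dpr13* and *dpr14* did not. *dpr20*, at 0.29, was the member of this group that did not pass (limma adjusted p = 0.362).

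Both DIPs of this group were called. *DIP-epsilon* (chr2L:6377771-6411326, minus strand) was at 8.52, 8.59 and 6.98 FPKM in control females against 8.92, 20.4 and 10.9 FPKM in *tud* females, and at 9.52, 3.49 and 4.99 FPKM in control males against 17.2, 14.9 and 11.8 FPKM in *tud* males. The groups did not overlap within either sex, but the lowest *tud* female library was close to the controls. The log2 difference was 0.92 (SE 0.24, limma adjusted p = 0.0251) for *DIP-epsilon* and 1.05 (SE 0.30, limma adjusted p = 0.0317) for *DIP-zeta*. *DIP-zeta* was at 8.13, 5.05 and 3.58 FPKM in control females and 10.6, 19.0 and 7.81 FPKM in *tud* females, so its genotypes overlapped there, and it did not overlap in males.

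**Figure D3:**
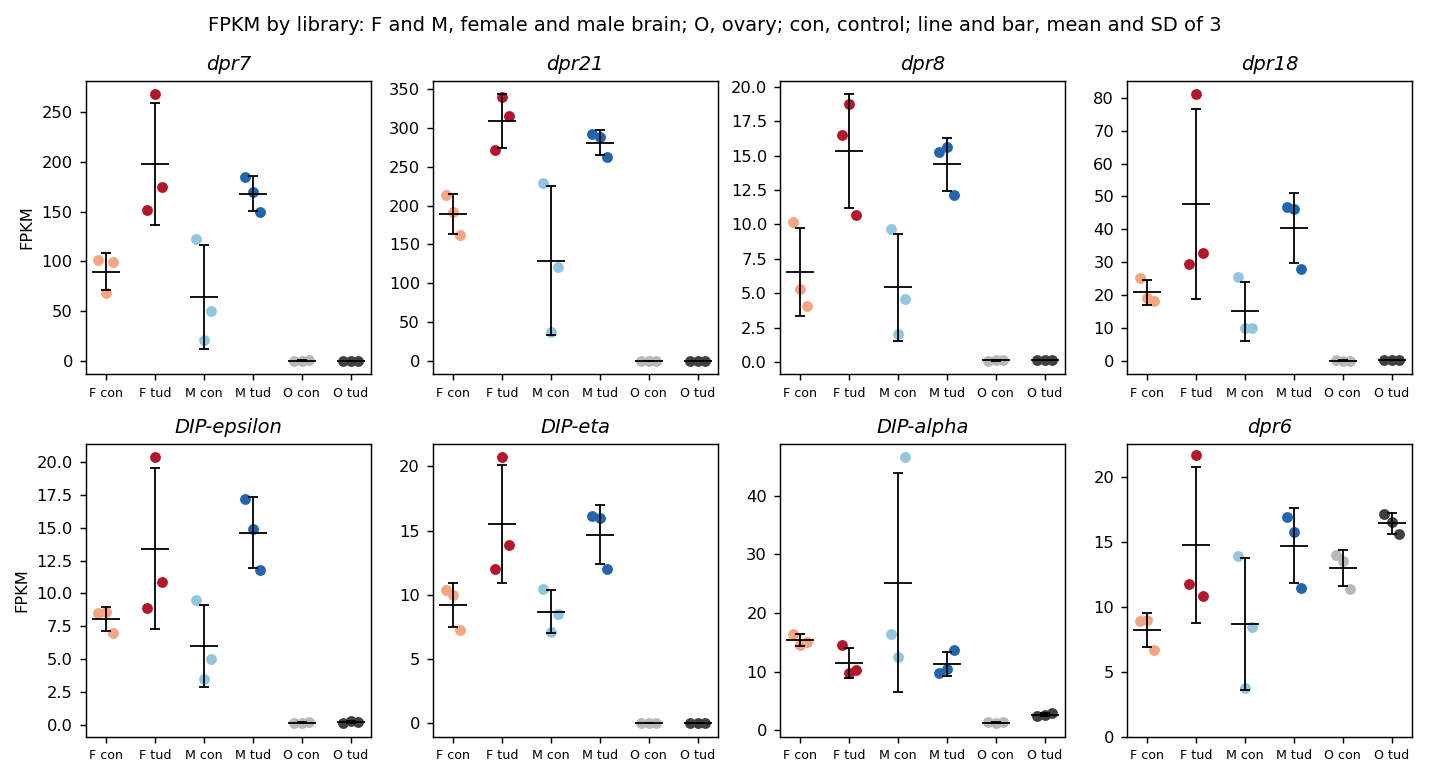
FPKM of 8 members in every library of the 6 groups, with the mean and SD of the 3 libraries of each group. In *dpr7*, *dpr21*, *dpr8* and *dpr18* the mutant brain libraries lie above the controls of the same sex. *DIP-alpha* lies lower in most mutant brains and higher in mutant ovaries. Of these 8, *dpr6* is the one whose ovary values lie within the range of its brain values, and its control ovaries lie above its control female brains.

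The other groups held fewer calls. In the group of DIP-eta, DIP-theta and DIP-iota, 2 of 8 members passed, with a median of 0.17. *DIP-eta* was at 7.11 to 10.5 FPKM in the 6 control brains and at 11.98 to 20.7 FPKM in the 6 mutant brains, with no overlap, and differed by 0.69 (SE 0.16, limma adjusted p = 0.0205), the smallest standard error among the DIPs called. *dpr4* was at 29.5 to 37.8 FPKM in controls and at 38.6 to 61.5 FPKM in mutants, also without overlap, and differed by 0.44 (SE 0.14, limma adjusted p = 0.0435). *DIP-theta* did not overlap within either sex but did not pass (0.58, SE 0.20, limma adjusted p = 0.0577). *dpr1*, *dpr2*, *dpr3*, *dpr5* and *DIP-iota* ranged from -0.13 to 0.36. In the DIP-gamma group *dpr15* alone passed, at 0.69 (SE 0.20, limma adjusted p = 0.032), and *dpr11* was at -0.24 (limma adjusted p = 0.269). Neither member of the DIP-delta group passed, with *dpr12* at 0.41 and *DIP-delta* at 0.28.

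DIP-alpha and its partners showed values on both sides of 0. *DIP-alpha* (chrX:3507245-3571649, minus strand) was at 16.5, 14.4 and 15.1 FPKM in control females against 14.5, 9.70 and 10.2 FPKM in *tud* females, and at 16.4, 12.5 and 46.6 FPKM in control males against 9.79, 10.5 and 13.6 FPKM in *tud* males. The genotypes overlapped in both sexes. The log2 difference was -0.64 (SE 0.27, unadjusted p = 0.0368, limma adjusted p = 0.0979), and it was called lower without control male brain replicate 2, with library weights (-0.83) and with the gene length trend removed (-0.93). *dpr11* was also called lower under the last 2 of these settings. *DIP-alpha* was not called without *tud* female brain replicate 2 (-0.59, limma adjusted p = 0.173). Nor was it called without both that library and control male brain replicate 2 (-0.77, limma adjusted p = 0.0681). Its value without control male brain replicate 3, at 46.6 FPKM, is not given here. *dpr6* and *dpr10*, its partners, were at 0.77 (SE 0.27, limma adjusted p = 0.0566) and 0.60 (SE 0.25, limma adjusted p = 0.103). *dpr6* did not overlap between genotypes in females and overlapped in males.

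Within both sexes and in the same direction, 9 members had every mutant library above every control library, 28.1% of members against 10% of all tested genes. They were *dpr4*, *dpr7*, *dpr8*, *dpr15*, *dpr18*, *dpr21*, *DIP-epsilon*, *DIP-eta* and *DIP-theta*. In the opposite direction the count was 0 members, against 9.01% of all tested genes.

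Position and gene size were compared with the calls, since the genotypes differ in the second chromosome. On that chromosome 6 of 14 members were called and the median log2 difference was 0.63. Elsewhere 6 of 18 were called and the median was 0.52. The shares called among all genes of these chromosomes are not given here, so these figures do not set the members against their chromosome. *dpr1* is the only member within 1 Mb of *tud*, 432880 bases away, and it was not called (0.36, SE 0.25, limma adjusted p = 0.293). Members are long genes, with a median span of 32526 bases, and 18 of them span at least 20 kb. Among all protein-coding genes of that span in the brain fit, 896 in number, 34.4% were called higher and the median was 0.40. Of the 18 long members 4 were called, and of the 14 shorter members 8 were called. No share over all genes spanning under 20 kb is given here to set beside the shorter members. With the trend of each library on gene span removed, 11 members were called higher, the same as the 12 apart from *dpr21*.

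Neighbouring members did not always move together. *dpr4* and *dpr5* lie 27531 bases apart on chromosome arm 3R, and *dpr4* was called while *dpr5* was at -0.09. *dpr15* and *dpr17* lie 27412 bases apart on the same arm, and *dpr15* was called while *dpr17* was at 0.01. *DIP-eta* and *DIP-theta* on 2L, 8344 bases apart, were at 0.69 and 0.58, and *dpr6* and *dpr10* on 3L, 8093 bases apart, at 0.77 and 0.60. The differences between neighbours were not tested. *dpr4* shares 469 exonic bases with the antisense gene *asRNA:CR45056*, which was lower in mutant brains (-1.47, limma adjusted p = 0.0119). The libraries were stranded, and how strand was used in the counting is not given in the sources used here.

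Within each sex alone the same contrast gave no call. In females 0 members passed, where 0.337% of all tested genes did (limma), and 8 members had an unadjusted p under 0.05, as did 16.9% of all genes. The female difference was positive for 28 members, against 51.3% of all genes, with a median of 0.51, and 11 members did not overlap between genotypes with the mutants higher, where 16.3% of all genes did so. *DIP-iota*, the lowest member, had every mutant female library below every control female, at 1.18 to 1.61 FPKM against 1.73 to 2.56 FPKM (log2 difference -0.32, limma adjusted p = 0.438), and 15.3% of all genes showed that order. In males 0 members passed, where 1.23% of all genes did (limma), and 15 members had an unadjusted p under 0.05, as did 33.2% of all genes. The male median was 0.67, and 16 members did not overlap with the mutants higher, against 19.4% of all genes. Without control male brain replicate 1, 14 members passed in males, and without *tud* female brain replicate 2, 2 did. Counts over all genes in these fits are not given here.

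No member was called different between the sexes in its genotype difference. The count was 0 at an adjusted p of 0.05, where 0.0187% of all genes passed (limma), and also 0 at an unadjusted p under 0.05, which 1.28% of all genes had. The intervals were wide. For *dpr7* the female minus male difference was -0.59, with a 95% interval from -2.15 to 0.96, so these libraries do not show that the sexes respond alike. Females were also compared with males of the same genotype. In controls 0 members passed (limma, 0.281% of all genes) and 0 had an unadjusted p under 0.05 (9.98% of all genes). In *tud* mutants 0 members passed (limma, 0.131% of all genes) and 0 had an unadjusted p under 0.05 (3.27% of all genes). *DIP-kappa* was at 14.5 to 18.4 FPKM in control females and at 20.2 to 25.9 FPKM in control males, the only member whose sexes did not overlap in controls, where 6.11% of all genes were lower in every female. *DIP-iota*, lower in females, was the only such member in *tud* mutants, where 5.62% of all genes were.

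Neuron markers moved with the members. In bulk tissue, fewer cells of a type and less RNA per cell cannot be told apart. The list of 10 neuron markers, of which 9 were found, summed to 340 to 940 FPKM in the 6 control brains and to 905 to 1468 FPKM in the 6 mutant brains. Of these 9 genes, 5 were called higher and 0 lower, with a median log2 difference of 0.95. *elav*, a pan-neuronal RNA-binding protein gene, was at 11.3 to 43.5 FPKM in controls and 35.5 to 54.6 FPKM in mutants (0.84, limma adjusted p = 0.059), and *nSyb*, the neuronal synaptobrevin gene, at 33.4 to 106 FPKM and 98.0 to 319 FPKM (1.39, limma adjusted p = 0.0258). Of 10 glial markers, 2 were called higher and 2 lower, with a median of 0.29 and sums of 2984 to 3618 FPKM in controls and 3337 to 3679 FPKM in mutants. *repo*, the transcription factor gene that defines glia, was at -0.42 (limma adjusted p = 0.0741). Of 13 eye photoreceptor markers, 9 were called higher, with a median of 1.17, and their sums were 2554 to 3901 FPKM in controls and 3141 to 10764 FPKM in mutants. *ninaE*, the gene of the main rhodopsin, differed by 1.17 (limma adjusted p = 0.0366).

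By library, the members had their extremes where the neuron markers did. The median member was 0.83 below its own mean (log2) in control male brain replicate 2, where the median neuron marker was 1.49 below, and 0.77 above it in *tud* female brain replicate 2, where the neuron markers were 0.79 above. Protein-coding genes spanning at least 20 kb had their extremes in the same libraries, at -0.49 and 0.42. When the mean log2 level of the neuron markers was added to the brain model as a covariate, 0 members were called (limma) and 1, *dpr11*, had an unadjusted p under 0.05, at -0.51. Calls were lost across the table, from 2666 to 43 of 10689 genes. The median member was then at -0.037, the values ran from -0.85 for *DIP-alpha* to 0.40 for *dpr18*, and 14 of 32 were positive. The genotype and the neuron marker level move together in these libraries, and the part of either in the members' difference was not tested.

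**Figure D4:**
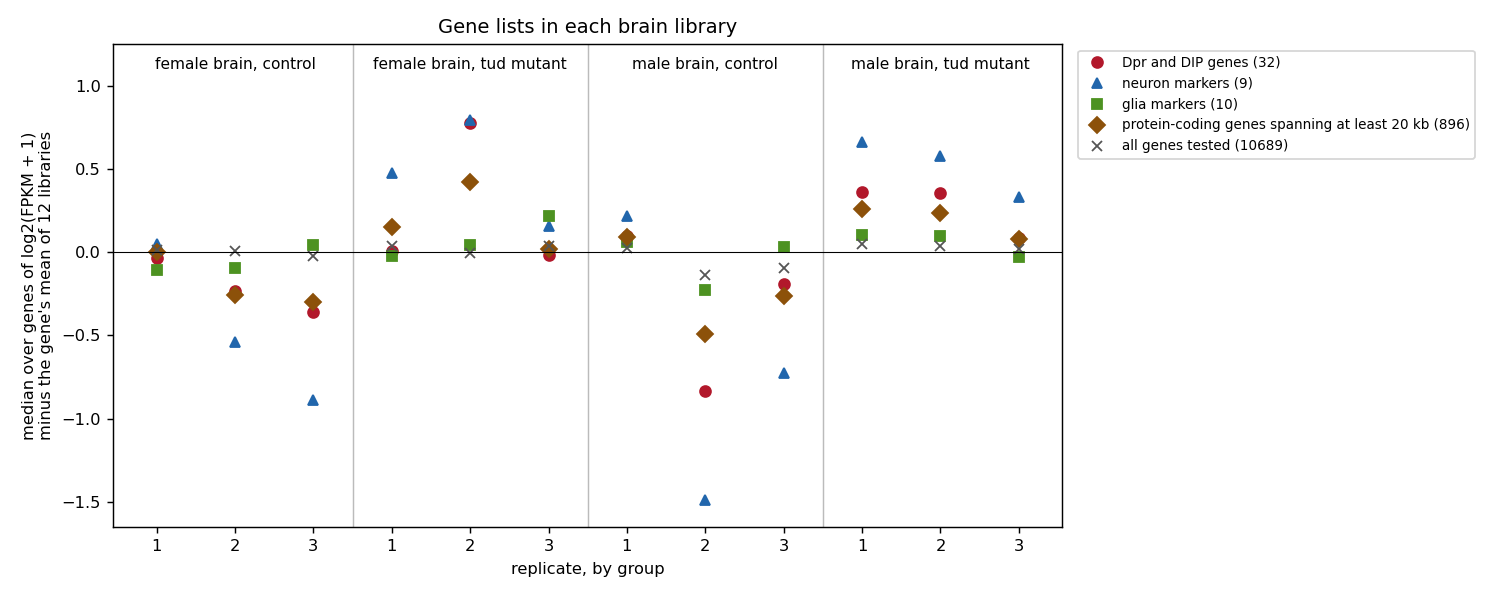
Median over the genes of each list of log2(FPKM + 1) minus the gene's own mean of the 12 brain libraries, by library. The members and the neuron markers are lowest in control male brain replicate 2 (-0.83 and -1.49) and highest in *tud* female brain replicate 2 (0.77 and 0.79). The long genes show the same extremes at -0.49 and 0.42, and glial markers and all genes stay nearer 0.

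**Figure D5:**
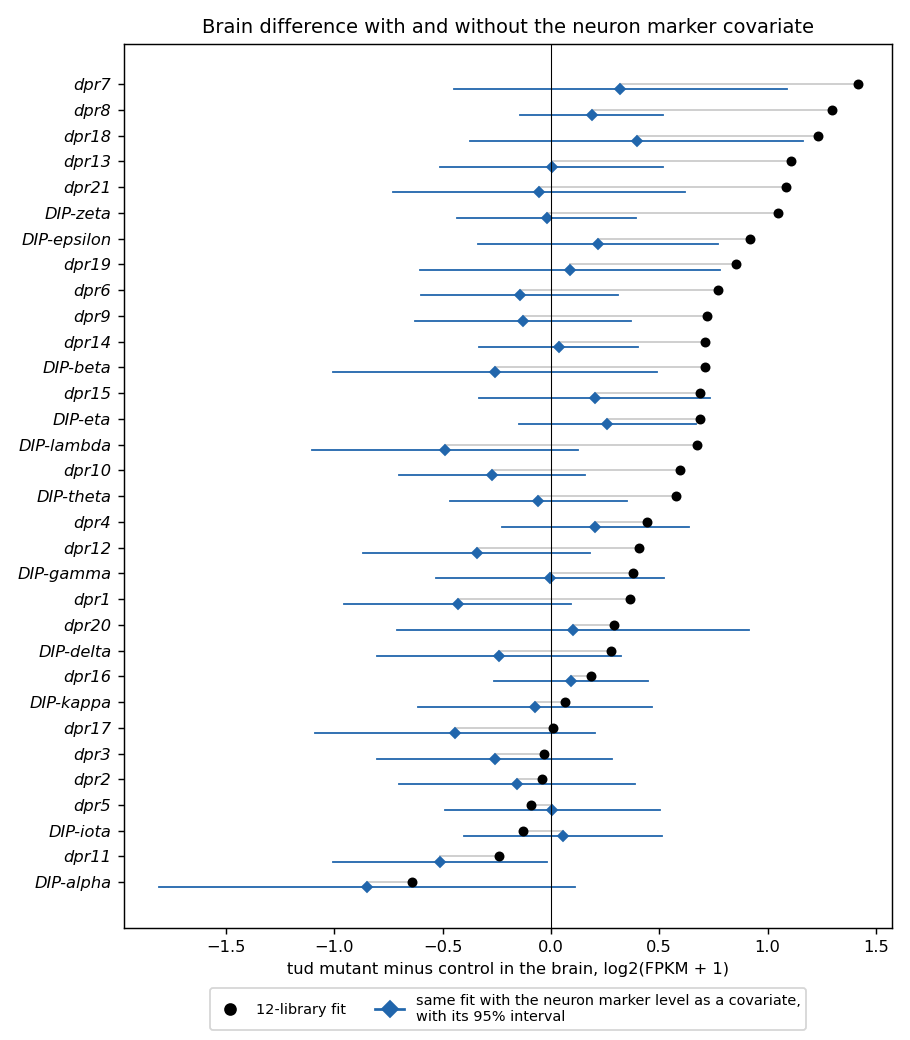
Brain difference of each member on the log2(FPKM + 1) scale in the 12-library fit (circles) and with the neuron marker level as a covariate (diamonds, with 95% intervals). The median moves from 0.59 to -0.037, and the interval of *dpr11* is the only one that lies wholly on one side of 0.

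Other genes of neuronal recognition were set beside the members. Of a list of 71 further neuronal surface and partner matching genes, such as the beat, side, Dscam, teneurin, neurexin, semaphorin and plexin genes, 70 were found and tested, 20 were called higher and 3 lower in mutant brains, and their median was 0.31. The largest rises were those of *PlexB*, a semaphorin receptor gene (1.59, SE 0.42, limma adjusted p = 0.0267), *side-VII* (1.21, SE 0.30, limma adjusted p = 0.0231) and the receptor tyrosine phosphatase gene *Ptp69D* (1.11, SE 0.28, limma adjusted p = 0.0231). The 3 that fell were *beat-IIIa* (-1.05), *wrapper* (-0.51), which is expressed in midline and cortex glia, and *side-VIII* (-0.29). *cDIP*, whose secreted product binds many Dprs and DIPs, was at 14.7 to 34.1 FPKM in control brains and at 5.38 to 19.2 FPKM in mutant brains. Its log2 difference was -0.88 (SE 0.32) and did not pass (limma adjusted p = 0.0633).

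The ovary was described beside the brain, since *tud* is best known for its role in germ cells. Most members were low there. In 29 of 32 every ovary library was under 1 FPKM, 20 were listed at 0 in at least 1 library, and *DIP-eta* was at 0 in all 6. With 1 fragment worth 0.0111 to 0.0150 FPKM on a transcript of 3 kb, such values rest on few fragments, and no fold is given for them. These 29 passed the filter of the fit of ovaries and female brains only through the brain, so their lower ovary level is a description and not a test. Of the other 3, *dpr6* was higher in control ovaries than in control female brains and *DIP-alpha* lower (-2.82, SE 0.14, limma adjusted p = 8.84e-09), where 80% of all genes were called in either direction. The difference of *dpr6* was 0.61 (SE 0.22, limma adjusted p = 0.0227), with 11.4 to 14.0 FPKM in control ovaries against 6.70 to 9.01 FPKM in control female brains, and it was 1.14 with quantile normalization and 2.67 with the gene length trend removed. *DIP-iota* was at 1.76 to 2.51 FPKM in control ovaries and 1.73 to 2.56 FPKM in control female brains (0.01, 95% interval -0.37 to 0.39). With quantile normalization *DIP-iota* was called higher in the ovary, at 1.44. The neuron markers together summed to 9.85 to 13.3 FPKM in control ovaries, and *elav* was at 0.633 to 0.755 FPKM and *nSyb* at 0.0488 to 0.111 FPKM there.

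Only *dpr6*, *DIP-alpha* and *DIP-iota* were tested between genotypes in the ovary, since they alone passed the filter of a mean of 1 FPKM. *DIP-alpha* was at 1.43, 1.15 and 1.38 FPKM in control ovaries and at 2.41, 2.65 and 2.88 FPKM in *tud* ovaries. The groups did not overlap, and the log2 difference was 0.65 (SE 0.13, limma adjusted p = 0.0421), where 4.09% of all genes tested in the ovary were called in either direction. It lost its call when any of the 6 ovary libraries was left out, with values from 0.60 to 0.70 and an adjusted p of up to 0.185. The gene shares 158 exonic bases with *CG2875* on the same strand, which was at 87.4 to 94.6 FPKM in control ovaries and 79.8 to 91.8 FPKM in mutant ovaries (-0.08, limma adjusted p = 0.609). Fragments from those bases, spread over the 8983 exonic bases of *DIP-alpha*, would amount to 1.40 to 1.66 FPKM, close to the control level of *DIP-alpha*. How the authors' program divided them was not tested.

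*dpr6* was at 14.0, 13.6 and 11.4 FPKM in control ovaries and at 17.2, 16.5 and 15.6 FPKM in *tud* ovaries. These groups did not overlap either, but the log2 difference of 0.32 (SE 0.09, unadjusted p = 0.00824) did not pass (limma adjusted p = 0.11). *DIP-iota* was at 1.76 to 2.51 FPKM in controls and 1.37 to 2.16 FPKM in mutants (-0.12, limma adjusted p = 0.77).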

How the data were processed

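Total RNA depleted of ribosomal RNA, without poly(A) selection, was sequenced from stranded libraries of hand-dissected brains and of ovaries. The authors mapped reads to dm6 with TopHat2 (2.0.13 in the submitters' notes) and the BDGP6 annotation, and deposited FPKM values per gene, written by Cuffnorm 2.2.1 according to those notes. Whether the FPKM were also scaled between libraries is not given in the sources used here. Groups came from the labels, and the design text calls the replicates biological. Positions and symbols came from Ensembl release 115, which matched 17016 of 17288 genes.

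Values were compared as log2(FPKM + 1) with limma 3.58.1 (trend, two-sided) in R 4.3.3, in fits of 12 brain libraries, 6 ovary libraries, and 12 ovary and female brain libraries. Genes with a mean of at least 1 FPKM over a fit were tested, p-values were adjusted over all of them, and differences are on the log2(FPKM + 1) scale, which understates changes of low genes. FPKM are not counts, so depth was estimated from the steps between low values, of which 97.8% to 99.5% lay within 0.1 of a whole fragment. On simulated data 59% of brain genes changed by 1 and 95% of those changed by 2 (log2) were found, with 6.1% false calls.

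The members, gene lists and tests were chosen with earlier results of these data known. Named genes were all called or non-overlapping members, the 3 highest and 3 lowest, those above 1 FPKM in control ovaries, those within 1 Mb of *tud*, and set genes outside the families. The further marker lists gave 0 calls in the brain difference for fat body, muscle, gut and follicle cells, 1 lower for haemocytes and 2 higher for ovarian germline genes. The alternatives included no filter on low values, a filter of 5 FPKM, a pseudocount of 0.1, median-of-ratios scaling, quantile normalization, removal of the gene length trend, the replicate block, library weights, protein-coding genes only, a neuron marker covariate, each sex alone, an adjusted p of 0.01, and leaving out each library.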

Additional observations from a re-analysis of the deposited data

Results flagged for a closer look

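*DIP-alpha* differed between tissues in its genotype difference, in a contrast chosen after seeing the data. In the fit of 6 ovary and 6 female brain libraries, its mutant minus control difference was larger in the ovary than in the female brain by 1.06 on the log2 scale (SE 0.20, limma adjusted p = 0.0385), where 1.05% of all 10443 genes tested were called in either direction. The 3 *tud* ovaries were at 2.41 to 2.88 FPKM against 1.15 to 1.43 FPKM in controls, and the 3 *tud* female brains at 9.70 to 14.5 FPKM against 14.4 to 16.5 FPKM. The value ran from 0.96 to 1.22 when each library was left out, and the call was kept in 3 of these 12 fits. Of 9 other settings of the analysis, 4 ended the call, with an adjusted p of up to 0.0786. The share of *DIP-alpha* reads that comes from the bases shared with *CG2875* was not tested.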

How the results depend on the processing

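The 12 members called higher in the brain fell to 0 with the neuron marker covariate (all genes from 2666 to 43) and to 0 at an adjusted p of 0.01 (145 genes), and to 7 without both control male brain replicate 2 and *tud* female brain replicate 2. Other settings gave 9 to 14 members higher, and library weights and removal of the length trend each gave 2 lower, *dpr11* and *DIP-alpha*. The median was -0.037 with the covariate. Of the 12 called members, *dpr21* (-0.054) and *DIP-zeta* (-0.019) turned negative under it. Over all 32 members, 14 were positive with the covariate, against 26 without it. Leaving out each library gave 0 to 18 calls and medians of 0.40 to 0.73 in the brain. It gave 0 to 0 calls in females, 0 to 14 in males and 0 to 0 for the 3 sex contrasts. It gave 0 to 0 calls in the ovary and 30 to 31 between tissues, most of which passed the filter only through the brain. Counts over all genes in these fits are not given here. Library weights gave 6 female calls (2649 genes against 36), 8 members lower in *tud* females than *tud* males (2243 genes against 14) and 2 ovary calls (1684 genes against 338). Removing the length trend gave 1 male call, *DIP-epsilon* (371 genes against 132). The single ovary call went to 0 with quantile normalization, an adjusted p of 0.01 (145 genes) and the replicate block (195 genes). With a filter of 5 FPKM *DIP-alpha*, at most 2.88 FPKM in any ovary library, was not tested, so no call was possible there. Between same-numbered brain libraries, deviations from the group means correlated at -0.16 to 0.37, with a median of 0.10 (ovary -0.11 to 0.03). Between differently numbered brain libraries they correlated at -0.48 to 0.40, with a median of -0.04 (ovary -0.09 to 0.11). These ranges overlap, and whether the numbers pair the samples was not tested. The block left 12 brain calls. Quantile normalization moved the median of all genes in the brain from 0.07 to -0.04. Of the 12 called members, *dpr8* and *DIP-eta* kept their call in 9 of 12 fits without a library, and *dpr19* and *dpr21* in 2. The median residual SD was 0.33 (log2) in the brain and 0.11 in the ovary, with 3 libraries a group.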

Other observations

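Expression of the members in the ovary below 1 FPKM was listed without a test. The highest of these values were those of *DIP-lambda* at up to 0.516 FPKM (6 to 35 estimated fragments per library), *dpr18* at up to 0.505 FPKM (9 to 33) and *dpr14* at up to 0.371 FPKM (13 to 32). *dpr18* was at 0.121 to 0.227 FPKM in control ovaries and at 0.346 to 0.505 FPKM in *tud* ovaries. Over all members, tested or not, 6 had every *tud* ovary above every control ovary. They were *dpr2*, *dpr6*, *dpr11*, *dpr18*, *DIP-alpha* and *DIP-theta*, and 1, *dpr12*, showed the opposite order. *dpr2*, *dpr11* and *dpr12* had 0 to 4 estimated fragments per ovary library and *DIP-theta* 0 to 3, so their order rests on single fragments. The share of all genes with such an order in the ovary is not given here, so these counts are a description only.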
